A study of Mus musculus with 7 samples.

Results

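A set of 8 miRNAs linked to microglia, blood leukocytes and inflammation was followed in the small RNA of the mouse hippocampus. They were chosen by name as mmu-miR-142-3p, mmu-miR-142-5p, mmu-miR-146a, mmu-miR-146b, mmu-miR-150, mmu-miR-155, mmu-miR-223 and mmu-miR-21. Of these 8 names, 7 could be joined to a level among 756 mature miRNA sequences, and all 7 were among the 476 sequences that were tested. mmu-miR-146b itself was not joined to a level and was not analysed here, which does not show that it was absent. Its hairpin is represented by the product of the other arm, mmu-miR-146b*. The rule uses names only, and no measured level.

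Small RNA was sequenced from pooled hippocampi of adult C57BL/6 mice aged 3 to 5 months. The NIPP1* animals carry a fragment of the nuclear inhibitor of protein phosphatase 1 (PP1) fused to EGFP under a tetO promoter, and a reverse tetracycline transactivator under the CaMKIIalpha promoter, so that a doxycycline diet switches the fragment on in forebrain neurons. Control animals were littermates, labelled wildtype. Trained animals of both genotypes had gone through training to recognise a new object (NOR), whereas non-trained animals were only placed in the training chamber. The paper reports that hippocampi were collected shortly after training ended. Its supplement describes a memory test soon after training in the animals used for sequencing, so the training comparisons may include that test. As labelled, the trained groups had 3 control libraries and 2 NIPP1* libraries, and each genotype had 1 library without training. How animals were divided among the libraries is not given in the sources used here, so p-values measure the spread between these libraries, which may be technical. Neither the transgene nor the mRNAs that define microglia are read in small RNA, and genotype and cell type could not be checked in these data.

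The libraries held between 7285183 and 10017758 miRNA reads, so that 1 read was worth between 0.0998 and 0.137 reads per 1000000 miRNA reads (RPM). The authors' tables of group means place the trained libraries the other way round from the labels. Over 319 miRNAs, the tables' trained control means were rebuilt with a root mean square error of 0.0128% from the 2 libraries labelled trained NIPP1*, against 15.6% from the 3 libraries labelled trained control. Which of these is right could not be told from the values. Groups follow the labels, and the members' values under the tables' grouping are given beside each comparison within or between the trained genotypes. Comparisons of all 5 trained with both non-trained libraries do not depend on it.

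miRNAs bind messenger RNAs mainly through the seed, bases 2 to 8 of the mature strand, and lower the output of the messages they bind. In the brain the miR-142 hairpin is known as a product of microglia and other cells of blood origin, miR-223 of myeloid cells, and miR-150 of mature lymphocytes. miR-155 is induced when macrophages, microglia and lymphocytes are activated. miR-146a and miR-146b are induced by NF-kB and dampen Toll-like receptor signalling through Traf6 and Irak1. miR-21 is made in many cell types, astrocytes included, and rises in many inflammatory and injury settings.

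The mature sequences, from RefSeq on GRCm38.p6, were matched for 7 of the 8 names. They are shown because the seed sets which messages each miRNA can pair with, and the seed is in capitals.
mmu-miR-142-3p: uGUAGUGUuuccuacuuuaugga
mmu-miR-142-5p: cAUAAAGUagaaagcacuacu
mmu-miR-146a: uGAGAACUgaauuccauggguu
mmu-miR-146b: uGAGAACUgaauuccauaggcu
mmu-miR-155: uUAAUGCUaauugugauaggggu
mmu-miR-223: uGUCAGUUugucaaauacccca
mmu-miR-21: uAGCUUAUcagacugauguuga
miR-146a and miR-146b have the same seed, GAGAACU, and differ by G18A and U21C, with positions counted from 1 at the 5′ end, the miR-146a base first. No other seed is shared among the 7 sequences shown, and the arms of the miR-142 hairpin carry different seeds.

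The 7 loci lie on 4 chromosomes of NCBI37/mm9. Both miR-142 arms come from an intron of the processed transcript A430104N18Rik, with miR-142-5p at chr11:87570369-87570389 and miR-142-3p at chr11:87570405-87570427, both on the plus strand. miR-21 lies on the minus strand at chr11:86397622-86397643, in a UTR exon of the protein-coding gene Vmp1. miR-146a, also on the minus strand, lies at chr11:43187937-43187958 outside any other annotated gene, as does miR-150 at chr7:52377132-52377153 on the plus strand. miR-155 lies in the exon of its own long noncoding RNA at chr16:84714388-84714410 on the plus strand. miR-223 lies in an exon of the processed transcript F630028O10Rik at chrX:93438223-93438244 on the plus strand.

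The 7 members together made up 1878 RPM on average, or 0.188% of the miRNA reads, with libraries between 1535 and 2274 RPM. Their mean levels fell into 3 tiers. miR-21 (537 ± 168 RPM), miR-142-3p (455 ± 67.1), miR-146a (430 ± 134) and miR-150 (347 ± 64.8) formed the upper tier (mean ± SD, n = 7 libraries). miR-142-5p (51.2 ± 8.07) and miR-223 (50.4 ± 3.89) were in the middle, and miR-155 (7.65 ± 1.37) was lowest. By mean level, miR-21 ranked 88 and miR-155 ranked 352 of the 756 sequences.

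Neighbours within a tier did not separate. miR-21 was above miR-142-3p, miR-142-3p above miR-146a, miR-146a above miR-150 and miR-142-5p above miR-223 in only 4 of 7 libraries each, and the ranges of each pair overlapped. The steps between tiers held in every library. miR-150 was 6.78 times miR-142-5p by mean level, and miR-223 was 6.58 times miR-155, with no overlap over the 7 libraries. These are levels of reads of products between 21 and 23 nt long, and how well each sequence takes up the adaptors was not measured.

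**Figure D1:**
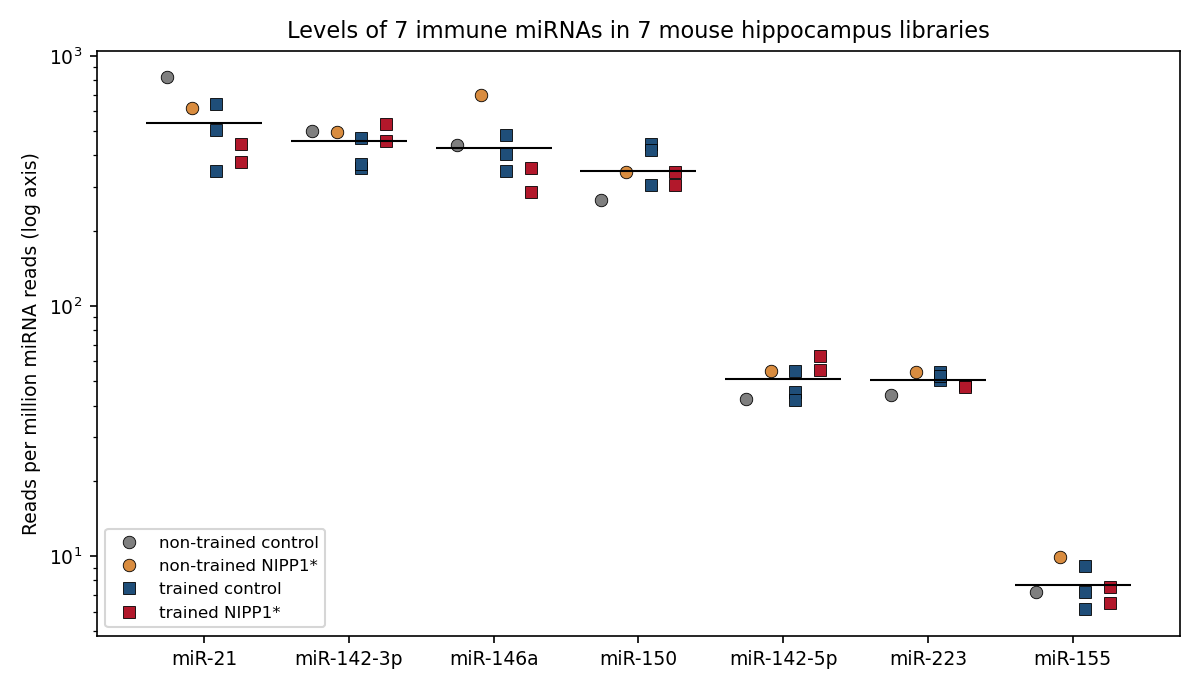
Level of each miRNA in the 7 libraries, in RPM on a log axis, with the mean over libraries as a black line. Each point is 1 library, coloured by group, and the members fall into tiers with means of 347 to 537, 50.4 to 51.2 and 7.65 RPM.

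Both arms were measured for 5 hairpins, those of miR-142, miR-146a, miR-150, miR-223 and miR-21, and all 5 were read unequally. miR-142 had the most balanced arms of these 5. miR-142-3p held 89.9% of the 29881 reads of both arms (95% Wilson interval 89.6 to 90.2%, counting error only), an 8.91-fold excess over miR-142-5p. This share was highest in the non-trained control library, at 92.2%, and lay between 88.7 and 90.0% in the other 6 libraries. miR-150 held 98.8% of its hairpin's reads, again with the non-trained control library apart, here as the lowest at 97.8%. For miR-223, miR-146a and miR-21 the shares were 99.7%, 99.9% and 99.9%. Of the minor arms, miR-150* reached 4.36 ± 0.94 RPM and miR-21* 0.81 ± 0.31 RPM (SD, n = 7), while miR-146a* and miR-223* rested on 18 and 8 reads in all. mmu-miR-146b* was read in all 7 libraries, 79 reads in total, at 1.37 ± 0.43 RPM, from an intron of Tmem180 at chr19:46417318-46417339.

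miR-21 varied widely between libraries. It stood at 820.9 RPM in the non-trained control library and at 619.5 RPM in the non-trained NIPP1* library. The trained controls had 639.8, 347.7 and 506.7 RPM and the trained NIPP1* libraries 376.4 and 445.8 RPM. The non-trained control library was thus the highest of all, and trained control replicate 1 alone among the trained libraries exceeded the non-trained NIPP1* library.

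miR-146a, the NF-kB-induced brake on Toll-like receptor signalling, varied as widely, with another library at the top. It stood at 438.4 RPM in the non-trained control and at 697.5 RPM in the non-trained NIPP1* library. In trained controls it was 483.8, 346.1 and 403.8 RPM, and in trained NIPP1* libraries 285.7 and 356.5 RPM. The non-trained NIPP1* library was highest and both trained NIPP1* libraries were among the lowest 3.

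The miR-142 arms were less variable. miR-142-3p had 498.7 RPM in the non-trained control and 495.2 RPM in the non-trained NIPP1* library, 471.6, 357.0 and 370.8 RPM in trained controls, and 455.6 and 535.7 RPM in trained NIPP1* libraries. miR-142-5p had 42.29 and 54.88 RPM in those non-trained libraries, 55.12, 45.38 and 41.95 RPM in trained controls, and 55.32 and 63.29 RPM in trained NIPP1* libraries. Both arms were highest in trained NIPP1* replicate 2 and low in trained control replicates 2 and 3, but only miR-142-5p was also low in the non-trained control.

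miR-150, the lymphocyte miRNA, ran the other way from miR-21. It was lowest in the non-trained control, at 265.3 RPM, with 342.3 RPM in the non-trained NIPP1* library. Trained controls had 305.1, 443.5 and 422.4 RPM and trained NIPP1* libraries 305.7 and 344.3 RPM. The pair of highest values came from trained control replicates 2 and 3.

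miR-223, the myeloid miRNA, was the most even member. It stood at 44.20 RPM in the non-trained control and 54.63 RPM in the non-trained NIPP1* library, at 54.63, 50.76 and 52.44 RPM in trained controls, and at 48.32 and 47.62 RPM in trained NIPP1* libraries. Its highest library was 1.24 times its lowest, and 7.98% of the 476 tested miRNAs had a smaller ratio. The same ratio was 2.44 for miR-146a and 2.36 for miR-21, with 88.2% and 87.0% of tested miRNAs below them, against a median of 1.56.

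miR-155, which marks activated immune cells, was present at a low level in every library. It had 7.20 RPM (64 reads) in the non-trained control and 9.91 RPM (80 reads) in the non-trained NIPP1* library. Trained controls had 7.19, 9.10 and 6.14 RPM and trained NIPP1* libraries 7.55 and 6.49 RPM. With between 48 and 80 reads per library, its values overlapped across all groups that had more than 1 library.

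To ask what inhibition of nuclear PP1 does without training, the non-trained NIPP1* library was set against the non-trained control. Of the 7 members, 5 were read more often in the NIPP1* library, miR-146a by 1.59-fold, miR-155 by 1.38-fold, miR-142-5p and miR-150 by 1.30-fold and 1.29-fold and miR-223 by 1.24-fold. miR-21 stood at 0.755 of its control level and miR-142-3p at 0.993. On the log2 scale, miR-146a differed by 0.67 (95% interval 0.61 to 0.73) and miR-21 by -0.41 (-0.46 to -0.35), where the exact binomial intervals cover counting error only. Among the tested miRNAs, 97.5% had a lower ratio than miR-146a and 10.9% a lower ratio than miR-21. The interval excluded 0 for 5 of 7 members, all but miR-142-3p and miR-155, against 44.1% of the tested miRNAs. No member reached a log2 ratio of 1 in either direction, which 12 of 476 miRNAs did (2.52%). With 1 library in each group, no replicate stands behind these ratios and no p-value was computed.

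**Figure D2:**
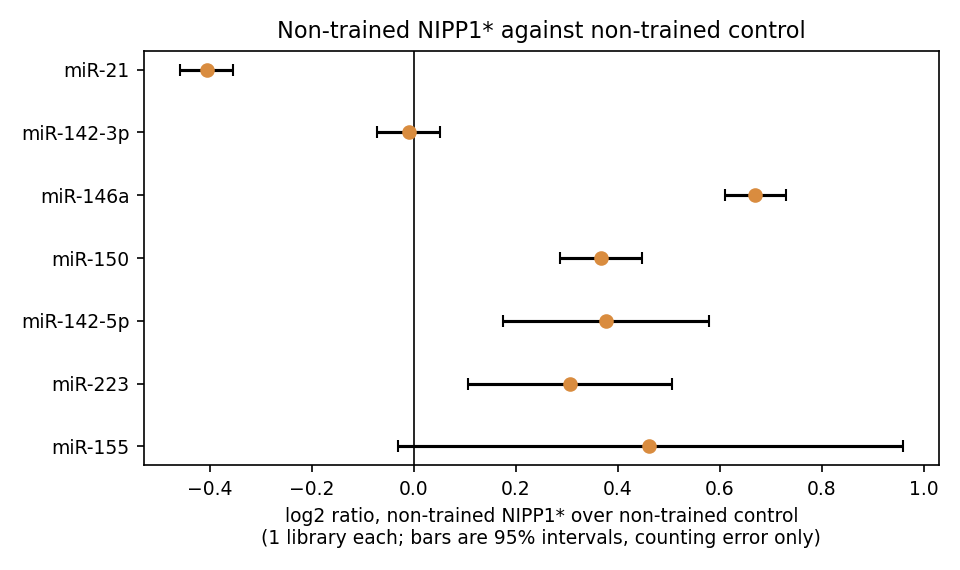
Log2 ratio of RPM, non-trained NIPP1* over non-trained control, for each member, with 1 library per group. Bars are 95% intervals for counting error only, and miR-146a lies farthest above 0 at 0.67 while miR-21 lies below 0 at -0.41.

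To ask what training changed, trained and non-trained libraries were compared with limma on log2(RPM + 0.5), with Benjamini-Hochberg adjustment over the 476 miRNAs. Over both genotypes, with 5 trained and 2 non-trained libraries, miR-21 had a log2 fold change of -0.66 ± 0.23 (SE, adjusted p = 0.816) and miR-146a of -0.58 ± 0.23 (adjusted p = 0.816). miR-21 had a mean of 463 ± 116 RPM (SD, n = 5) in trained libraries and a mean of 720 RPM in the non-trained pair. For miR-146a these means were 375 ± 73.9 RPM and 568 RPM. miR-142-3p (-0.20), miR-155 (-0.21), miR-142-5p (0.10), miR-223 (0.04) and miR-150 (0.25) had smaller estimates with SEs between 0.14 and 0.20. The miR-150 estimate was 0.071 without the non-trained control and 0.44 without the non-trained NIPP1* library. No member passed the adjusted test, nor did any of the 476 miRNAs (0%), while an unadjusted p under 0.05 was found for 2 of 7 members and for 5.46% of all tested. That is 26 miRNAs, against 37 without trained control replicate 1 and 6 without the non-trained control. The trained and non-trained values overlapped for all 7 members, whereas they did not overlap for 11.6% of the tested miRNAs. The miR-146a estimate depended on which non-trained library was kept, since without the non-trained NIPP1* library it was -0.25 ± 0.26, and without the non-trained control -0.92 ± 0.26. The corresponding estimate for miR-21 lay between -0.86 and -0.45 when each library was left out in turn.

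Within controls, the 3 trained libraries were compared with the single non-trained library. miR-21 had a log2 fold change of -0.76 ± 0.32 (adjusted p = 0.666) and miR-150 of 0.54 ± 0.24 (adjusted p = 0.666). miR-142-3p stood at -0.33 ± 0.21 and miR-223 at 0.25 ± 0.18, and these 4 members had all 3 trained libraries on the same side of the non-trained library. That was so for 55.7% of the tested miRNAs. miR-142-5p (0.16), miR-155 (0.03) and miR-146a (-0.11) had values on both sides, and the direction of the last 2 depended on trained control replicate 2, without which they were -0.11 and 0.01. The miR-142-5p estimate was 0.045 without trained control replicate 1 and 0.24 without replicate 3. No member and none of the 476 miRNAs passed the adjusted test (0%), and 1 of 7 members and 5.88% of all tested had an unadjusted p under 0.05. That share is 28 miRNAs, against 108 without trained control replicate 1, 14 without replicate 2 and 12 under the tables' grouping. The miR-21 estimate was -0.97 ± 0.25 without trained control replicate 1 (adjusted p = 0.103) and -0.53 ± 0.23 without replicate 2 (adjusted p = 0.908). With trained libraries placed as in the tables, the miR-21 estimate was larger, at -1.002 ± 0.341, and those of miR-150 (0.29 ± 0.26), miR-223 (0.12 ± 0.20) and miR-142-3p (-0.014 ± 0.23) were smaller. miR-142-5p then had 0.48 ± 0.24, miR-146a -0.46 ± 0.25 and miR-155 -0.04 ± 0.30. The trained libraries then all lay on the same side of the non-trained library for miR-142-5p, miR-146a, miR-150, miR-223 and miR-21, and no longer for miR-142-3p. For that grouping the share of all tested miRNAs was not computed.

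Within NIPP1* mice, the 2 trained libraries were compared with the non-trained library that held the highest miR-146a level. As labelled, miR-146a had the largest estimate of any member in any comparison, -1.13 ± 0.25 on the log2 scale (adjusted p = 0.449). Under the tables' grouping the largest was that of miR-21 in controls, at -1.002. Here miR-146a was tested in further ways. Applied to recovered reads as labelled, DESeq2's Wald test called miR-146a (-1.08 ± 0.28, adjusted p = 0.0209), whereas limma and edgeR's quasi-likelihood test (adjusted p = 0.465) did not. miR-21 stood at -0.60 ± 0.34, miR-155 at -0.47 ± 0.30 and miR-223 at -0.19 ± 0.20. miR-142-5p (0.11), miR-150 (-0.08) and miR-142-3p (-0.003) were close to 0, and the sign of miR-142-3p turned with TMM scaling (0.02). The miR-142-5p estimate was 0.20 without trained NIPP1* replicate 1 and 0.011 without replicate 2. Both trained libraries lay on the same side of the non-trained library for 5 of 7 members, miR-142-5p, miR-146a, miR-155, miR-223 and miR-21, against 70.2% of all tested. No miRNA passed the adjusted limma test (0%), and an unadjusted p under 0.05 was found for 1 of 7 members and 4.41% of all tested. That is 21 miRNAs, against 37 without trained control replicate 1, 10 without trained NIPP1* replicate 1 and 9 under the tables' grouping. Under the tables' grouping the estimates were -0.78 ± 0.23 for miR-146a, -0.36 ± 0.32 for miR-21, -0.40 ± 0.29 for miR-155 and -0.05 ± 0.18 for miR-223. miR-142-3p then had -0.32 ± 0.21, and miR-142-5p (-0.22 ± 0.23) and miR-150 (0.17 ± 0.24) turned sign. The trained libraries then all lay on the same side of the non-trained library for miR-142-3p, miR-146a and miR-155 only. The share of all tested miRNAs was not computed for that grouping.

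**Figure D3:**
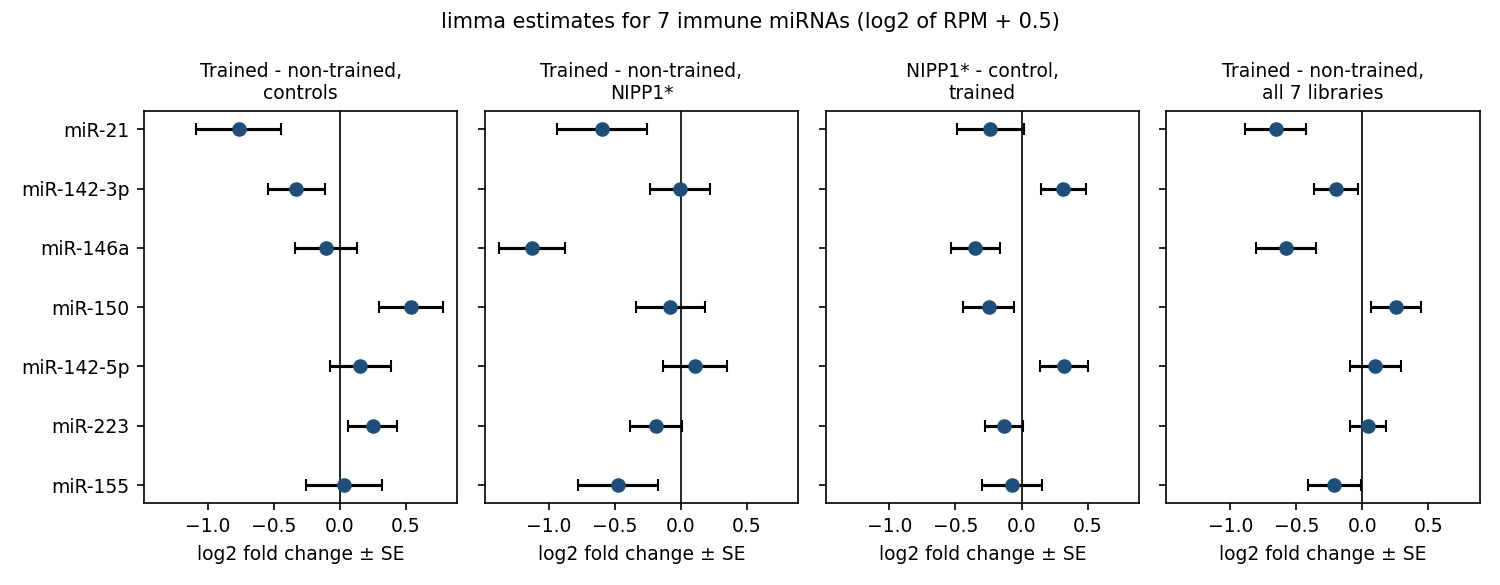
limma log2 fold changes of the 7 members on the log2(RPM + 0.5) scale, in 4 comparisons, with points for estimates and bars for 1 SE. Groups are as labelled. miR-21 lies below 0 in all 4 panels, and miR-146a lies farthest from 0, at -1.13, for training within NIPP1* mice. Under the tables' grouping miR-21 stood at 0.24 between the trained genotypes. The estimate farthest from 0 was then miR-21 in controls, at -1.002. No estimate passed the adjusted test.

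Whether the training effect differed between genotypes was tested as an interaction in the same model. miR-146a had the largest difference among the members, -1.02 ± 0.34 (NIPP1* minus control, adjusted p = 0.577), and miR-150 had -0.61 ± 0.36 (adjusted p = 0.735). The other members lay between -0.51 and 0.33, with SEs between 0.27 and 0.47. None of the 476 miRNAs passed the adjusted test (0%), and 1 of 7 members and 7.77% of all tested had an unadjusted p under 0.05. That is 37 miRNAs, against 85 without trained control replicate 1, 21 without trained NIPP1* replicate 1 and 6 under the tables' grouping. Under the tables' grouping the difference was -0.32 for miR-146a and -0.12 for miR-150, while miR-142-5p had -0.70, miR-21 0.64, miR-155 -0.36, miR-142-3p -0.31 and miR-223 -0.17. The comparison over both genotypes and the interaction use both non-trained libraries, and each comparison within a genotype uses 1 of them, so these values are not independent.

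Between trained NIPP1* and trained control libraries, as labelled, the miR-142 arms were estimated higher in NIPP1* and the other members lower. miR-142-3p averaged 496 ± 56.6 RPM (SD, n = 2) against 399.8 ± 62.6 RPM (n = 3), a log2 fold change of 0.32 ± 0.17 (adjusted p = 0.659), and miR-142-5p had 0.32 ± 0.18. miR-146a had -0.35 ± 0.19, miR-150 -0.25 ± 0.19 and miR-21 -0.24 ± 0.25. miR-223 (-0.13 ± 0.15) and miR-155 (-0.07 ± 0.23) had the smallest estimates. miR-142-5p and miR-223 were the 2 of 7 members whose groups did not overlap, which held for 26.5% of all tested. No miRNA passed the adjusted test (0%), and an unadjusted p under 0.05 was found for no member and 7.14% of all tested. That is 34 miRNAs, against 113 without trained control replicate 1, 10 without trained NIPP1* replicate 2 and again 34 under the tables' grouping. Leaving out each library in turn gave 0.20 (without trained NIPP1* replicate 2) to 0.44 (without trained control replicate 1) for miR-142-3p, and 0.23 to 0.44, without the same libraries, for miR-142-5p. It gave -0.47 to -0.035 for miR-21, the latter without trained control replicate 1. For miR-150 it gave -0.42 (without that library) to -0.15 (without replicate 2), and for miR-146a -0.51 to -0.19, at either end without 1 of the trained NIPP1* libraries. Under the tables' grouping every sign is the opposite, with sizes as given.

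Across the 5 tested comparisons, limma and edgeR called 0 of 476 miRNAs, and DESeq2 called 1 for training in controls, 1 for the trained genotypes, 2 for training in NIPP1*, 1 for training over both genotypes and 2 for the interaction. The median log2 fold change of the members was -0.20 for training over both genotypes, 0.03 within controls and -0.19 within NIPP1*, beside medians of -0.06, -0.09 and -0.03 over all tested miRNAs. For the trained genotypes it was -0.13 beside 0.04, and for the interaction -0.43 beside 0.03. These are values as labelled. Under the tables' grouping the members' medians were -0.01 in controls, -0.32 in NIPP1* and 0.13 for the trained genotypes. Over all tested miRNAs they were then -0.04, -0.09 and -0.04. The members' median for the interaction stayed below 0. A p above the threshold does not show that the levels were alike.

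Other miRNAs that immune cells also use were followed as a list. All 15 of them were measured, among them miR-342-3p, miR-181a, miR-125b-5p, the miR-221 and miR-222 pair and let-7i, and 14 were tested. None passed the adjusted test in any comparison. For training over both genotypes, 8 had estimates above 0 and 6 below, with a median of 0.01. The split was 7 and 7 for training in controls (median 0.03), 6 and 8 for training in NIPP1* (median -0.08), 5 and 9 for the trained genotypes as labelled (median -0.09) and 4 and 10 for the interaction (median -0.11). An unadjusted p under 0.05 was found for 2 of the 14 in the interaction (against 7.77% of all tested), for 1 in controls (5.88%) and between the trained genotypes (7.14%), and for none in the other comparisons. Under the tables' grouping the split was 8 and 6 in controls, 5 and 9 in NIPP1*, 9 and 5 for the trained genotypes and 5 and 9 for the interaction, where none had an unadjusted p under 0.05. Many of these are also abundant in neurons, such as miR-125b-5p at a mean of 93854 RPM.

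Lists for other cell types varied between the same libraries, and fewer cells of a type and less RNA per cell cannot be told apart in bulk tissue. The red blood cell miRNAs, of which 3 of 4 were measured (miR-451, miR-144 and miR-144*), summed to 126.5 RPM in the non-trained control and 90.1 RPM in the non-trained NIPP1* library. They summed to 137.8, 66.2 and 66.8 RPM in trained controls and to 145.1 and 271.7 RPM in trained NIPP1* libraries, the highest in replicate 2, where both miR-142 arms were also highest. Between the trained genotypes as labelled their log2 fold changes were 1.19 to 1.37 (adjusted p = 0.639 for each), and 3 of 3 had an unadjusted p under 0.05, against 7.14% of all tested. For training they were 1.023 to 2.004 in NIPP1* (2 of 3 under 0.05 unadjusted, against 4.41%) and -0.71 to -0.55 in controls (0 of 3, against 5.88%). The interaction was 1.58 to 2.60 (2 of 3, against 7.77%). Under the tables' grouping the signs turned for the trained genotypes (-1.37 to -1.19), for training in controls (0.62 to 0.78) and for the interaction (-0.80 to -0.15), and training in NIPP1* gave -0.16 to 0.63, with miR-451 below 0. Their part in the miR-142 values was not tested.

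The oligodendrocyte list (3 of 3 measured, miR-338-3p foremost) summed to 4850 RPM in the non-trained control and 3885 RPM in the non-trained NIPP1* library. It summed to 3333, 2808 and 3007 RPM in trained controls and to 4426 and 4162 RPM in trained NIPP1* libraries. The sums of the trained groups as labelled thus did not overlap, as was so for 26.5% of the tested miRNAs taken singly. Nearly all of the sum was miR-338-3p, at a mean of 3726 RPM. Of its 3 miRNAs, miR-219-5p and miR-338-3p had an unadjusted p under 0.05 between the trained genotypes (log2 fold changes of 1.13 and 0.50 as labelled, against 7.14% of all tested), for training in controls (-0.96 and -0.68, against 5.88%) and for the interaction (1.99 and 0.82, against 7.77%). For training in NIPP1* all 3 estimates were above 0, and only miR-219-5p, at 1.03, had an unadjusted p under 0.05 (against 4.41%). Under the tables' grouping the trained genotypes turned, to -1.13 for miR-219-5p and -0.50 for miR-338-3p, as did the interaction (-0.27 and -0.18) and training in NIPP1* (-0.10 and -0.36). For training in controls that grouping gave 0.17 for miR-219-5p and -0.18 for miR-338-3p. Like miR-21, the list was highest in the non-trained control. The choroid plexus list (2 of 3 measured) was highest in trained control replicate 1, at 1154 RPM against 400.4 to 872 RPM in the other 6 libraries, carried by miR-204, with miR-211 at 0.27 RPM or less and at 0 in 1 library. The neuron list (6 of 6) lay between 196284 and 227517 RPM. The vessel list (4 of 4) summed to 14824 and 14791 RPM in the non-trained control and NIPP1* libraries and to 15486 to 18452 RPM in the 5 trained ones. These sums did not overlap, as was so for 11.6% of the tested miRNAs taken singly. Most of the sum was miR-143, at a mean of 10463 RPM. For training over both genotypes, 2 of its 4 miRNAs had an unadjusted p under 0.05 (against 5.46% of all tested), miR-145 at 0.40 ± 0.13 and miR-143 at 0.34 ± 0.13 on the log2 scale (adjusted p = 0.816 for both). The other 2, miR-126-3p (-0.064 ± 0.097) and miR-126-5p (-0.12 ± 0.14), were estimated below 0, so the list did not move as 1. None of the tested miRNAs of these 5 lists passed the adjusted test in any comparison, and their part in the members' values was not tested.

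**Figure D4:**
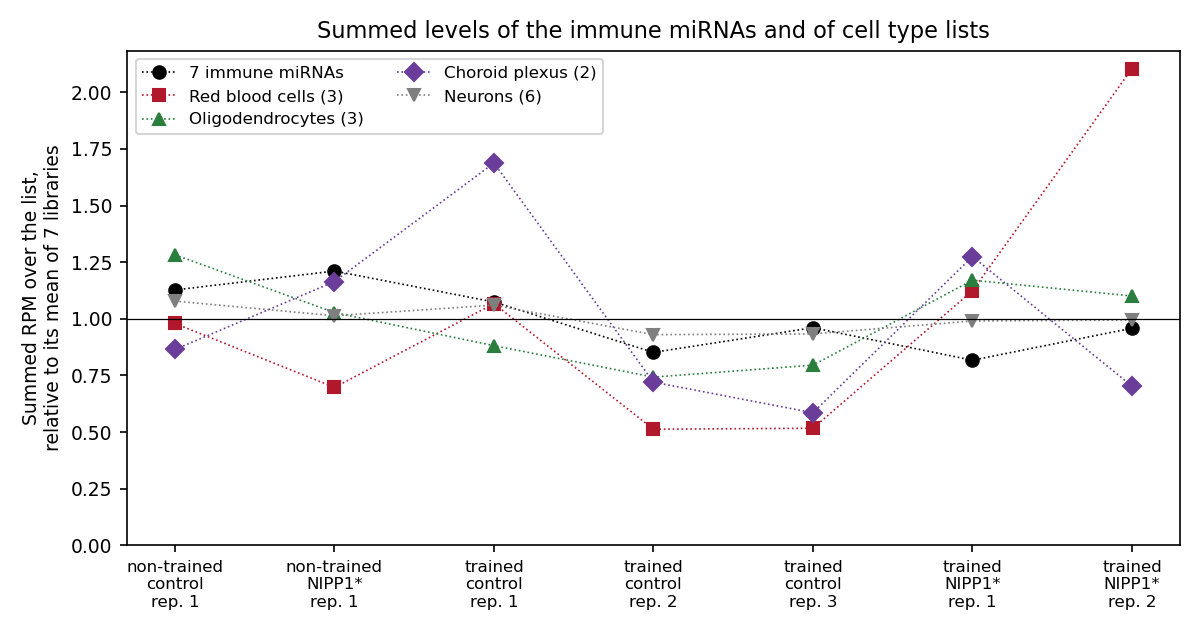
Summed RPM of the 7 members and of 4 cell type lists in each library, each divided by its own mean over the 7 libraries; dotted lines only join the points of a list. The members lie between 1535 and 2274 RPM, while the red blood cell list ranges from 66.2 to 271.7 RPM and is highest in trained NIPP1* replicate 2.

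The members followed several patterns over the libraries. Of their 21 pairs, 12 had a Pearson's r above 0 over the 7 libraries. The highest were miR-146a with miR-21 (r = 0.69) and the arms of miR-142 (r = 0.64), and the lowest were miR-142-3p with miR-150 (r = -0.78) and miR-150 with miR-21 (r = -0.63). These values are descriptions over 7 libraries that share a scaling to total miRNA reads.

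With miRNAs held to a mean of 100 reads or more, the closest in pattern to miR-142-3p were miR-29c (r = 0.97) and miR-186 (r = 0.96). miR-21 was closest to miR-210 (r = 0.96) and miR-598 (r = 0.92), and miR-223 to miR-378* (r = 0.95) and miR-1843-3p (r = 0.94). miR-150 followed miR-331-3p and miR-673-5p (r = 0.92 for both). miR-142-5p was nearest to miR-7a-1* (r = 0.89) and miR-23b (r = 0.86), and miR-146a to miR-124* (r = 0.87) and miR-339-5p (r = 0.86). For miR-155 the nearest were miR-182 and miR-183 (r = 0.88 for both). No member was among the 2 miRNAs closest in pattern to another member. These are the 2 highest of 318 values for each member (319 for miR-155), over the same 7 libraries and the same scaling.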

How the data were processed

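The authors prepared TruSeq small RNA libraries from pooled hippocampi, selected inserts 19 to 26 nt long, aligned these to NCBI37/mm9 with bowtie and ncPRO-seq (CASAVA 1.7.0 and bedtools are also in the submitters' processing notes) and deposited for each mature locus the percent of the library's miRNA reads. Their 4 deposited tables hold a signal, the mean of reads over size factors per group. The fold changes, p-values and residual variances there are the authors' own comparisons and were not used, nor were 2 columns of values per library. Percentages were converted to RPM, and the 806 loci were merged by sequence to 756. Copies of a sequence were averaged, and the largest spread between copies was 2.67% of a library's miRNA reads. Low values are multiples of 1 read (100% whole within 0.1 read), which gave back whole reads. The authors' names were joined to sequences by the reads of the 2 non-trained libraries and the number of the hairpin. This placed 654 of 757 names.

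Members and lists were chosen with earlier results of these data known. Sequences with a mean of at least 10 reads were tested with limma 3.58.1 (trend) in a model of 4 groups over 7 libraries, and trained against non-trained in a model of 2 levels. Non-trained groups have 1 library each, so their spread is taken from the trained ones. Non-trained libraries were compared by exact conditional binomial intervals. The fit was tested on simulated data in which 200 of the 476 sequences differed by 2 on the log2 scale. It found between 80.5% (interaction) and 99% (training over both genotypes) of them, and 2.5% to 5.4% of its calls were false. All estimates for the members were smaller than 2 in size. Smaller differences were not simulated, so these shares do not tell how often such differences would be found.

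Named were the members, their opposite arms, the 2 miRNAs closest to each in Pearson's r, the members of the lists and any miRNA called by limma. edgeR 4.0.16 and DESeq2 1.42.0 on recovered reads, other scalings, pseudocounts, read minimums, the tables' grouping, models of fewer groups and leaving out each library were alternatives. Scripts ran in R 4.3.3 and in Python 3.11.15 with pandas 2.3.3, scipy 1.17.1 and numpy 2.4.6. Intervals cover counting error only. They treat each read as independent, which amplified reads are not, so they may be too narrow even for that.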

Additional observations from a re-analysis of the deposited data

How the results depend on the processing

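limma called no miRNA under any scaling, pseudocount, read minimum, model or left-out library tried, and edgeR called none. DESeq2's Wald test called 1 for training in controls and 1 over both genotypes (miR-129-2-3p), 1 for the trained genotypes (miR-344d-3*), 2 for training in NIPP1* (miR-146a at -1.08, and miR-136) and 2 for the interaction (miR-136 and miR-344d-3*). All but miR-146a were named after their values were seen. The miRNAs past a log2 ratio of 1 between the non-trained libraries numbered 73 with a mean of at least 1 read and 3 with at least 100 reads, against 12. The order and arm shares of the members moved by less than their spread. Rescaling a library by 1 factor cannot change either within that library, so the other scalings are no test of them there.

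Signs turned for small estimates. Placing the trained libraries as in the tables turned the trained genotypes by construction, to -0.32 for both miR-142 arms, 0.35 for miR-146a, 0.25 for miR-150, 0.072 for miR-155, 0.13 for miR-223 and 0.24 for miR-21. It also gave -0.038 for miR-155 in controls, -0.22 for miR-142-5p and 0.17 for miR-150 in NIPP1*, and -0.31 for the miR-142-3p interaction. For miR-142-3p in NIPP1*, TMM and edgeR gave 0.024, DESeq2 size factors 0.037 and its Wald test 0.041. The Wald test gave 0.0018 for miR-146a in controls.

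With each library left out in turn, training in controls ranged from -0.23 to 0.012 for miR-146a and from -0.11 to 0.16 for miR-155, both turned by trained control replicate 2. That library and trained NIPP1* replicate 2 turned miR-155 between trained genotypes (-0.20 to 0.070), and that library the miR-21 interaction (-0.069 to 0.37). Trained NIPP1* replicate 1 turned miR-142-3p (-0.12 to 0.11) and miR-150 (-0.16 to 0.0084) in NIPP1*, and with trained control replicate 1 also the miR-142-5p interaction (-0.14 to 0.063). For training over both genotypes, the non-trained control turned miR-142-5p (-0.087 to 0.29) and miR-223 (-0.11 to 0.20), and the non-trained NIPP1* library turned miR-155 (-0.43 to 0.0054). Apart from the tables' grouping, the cause was not tested.

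No paired analysis was possible because the labels give each library a number of its own. Depth limits miR-155 (48 to 80 reads per library) and the minor arms most, and the single non-trained library of each genotype limits every training comparison.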
